A study of Caenorhabditis elegans with 34 samples.

Results

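The bus genes of Caenorhabditis elegans were followed through larval development, adulthood and the loss or change of the germ line. They were taken as every probe whose gene symbol, updated by gene ID, starts with bus-, which gave 6 of the 5550 genes that probes could be named for, on 6 of the 13323 probes: bus-5, bus-6, bus-10, bus-22, bus-24 and bus-28. Each has 1 probe, and the reference gene table (assembly WBcel235) lists 15 bus genes in all. Messenger RNA was hybridised to 34 spotted arrays, in red and green. Of these, 29 set RNA of synchronized glp-4(bn2) worms, which the labels use as worms with no germ line, or of wild-type (N2) worms, against a pool of reference RNA. The glp-4 groups had 3 arrays at larval stage L2, 4 at L3, 4 at L4 and 4 of young adults, and the wild-type groups had 3, 4, 4 and 3 arrays at the same stages. A further 5 arrays compared fem-3(q23) with fem-1(hc17) worms on the same slide. At the restrictive temperature fem-3(q23), a gain-of-function allele, makes sperm continually, while fem-1(hc17), a loss-of-function allele, makes oocytes and no sperm, and both mutants have a female soma. Their labels mention only the permissive temperature and no shift from it, and no growth temperature is given for the glp-4 and wild-type worms in the sources used here.

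Nematodes are covered by a cuticle and a carbohydrate-rich surface coat that are made mainly by the epidermis. The bus genes (bacterially unswollen) were named after mutants whose tail does not swell when they are exposed to the pathogen Microbacterium nematophilum, which sticks to the worm's surface, and several members of the class act in the synthesis or transport of surface sugars. Of the members measured here, bus-5 encodes an enzyme of dTDP-rhamnose synthesis, a dehydratase that acts on a nucleotide-bound glucose; rml-3 and rml-4 act in the same pathway.

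By identifier, bus-5 is F53B1.4 on chromosome X, bus-6 is F52E1.9 on V, bus-10 is ZK596.3 on IV, bus-22 is F37A4.3 on III, bus-24 is Y11D7A.9 on IV and bus-28 is M03F8.1 on V. The first 4 had a value on all 29 arrays with the reference pool, whereas bus-24 and bus-28 had one on only 14 of them each. A value is the log2 ratio of worm RNA over the reference pool, so 0 means the level of the pool, and levels of different genes cannot be set against each other. The base of the deposited logarithm is not stated and was taken as 2, so a fold change holds only for that base. Groups are given as mean ± SD, and differences as log2 change ± SE of limma's linear model with an adjusted p over all probes tested (Benjamini-Hochberg, two-sided, threshold 0.05).

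The reference arrays held 10155 to 11696 values each and the fem arrays 12215 to 13295, and replicates correlated at r = 0.552 to 0.886 over all probes. Titles name the reference as a mixed control on all adult arrays, as REF-vjr on all L2 arrays, and in both wordings within each strain at L3 and L4, where replicates 2 and 4 have the mixed control wording. The array lot numbers fall into separate ranges along the same split. The descriptions name a vjr reference pool on all of them, but do not say whether the wordings mean the same preparation. Values within the mixed control arrays are given beside the changes of bus genes from L4 to adult. Of the arrays, 4 correlated better with the mean of another group than with the other arrays of their own: glp-4 L2 replicate 1, glp-4 L3 replicate 1, and wild-type L4 replicates 2 and 4. The labels also disagree on the stage of glp-4 L2 replicate 1 and of wild-type L4 replicates 1 and 4. Among adult arrays, glp-4 replicate 1 has a time code in its title that no other adult array has, while its description gives young adults. The tissue that makes the surface could not be checked directly, since none of the 6 genes chosen as epidermis and cuticle markers (dpy-7, col-19, rol-6, sqt-3, wrt-2 and noah-1) was among the named probes.

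Young adults had much less bus-5 RNA than larvae in both strains, and less in wild type than in glp-4. In glp-4 worms bus-5 averaged 1.12 ± 0.87 at L2 (n = 3), 0.54 ± 0.51 at L3 (n = 4), 1.23 ± 0.23 at L4 (n = 4) and -1.01 ± 0.73 in adults (n = 4). In wild type it averaged 1.94 ± 0.59 at L2 (n = 3), 1.30 ± 1.15 at L3 (n = 4), 0.98 ± 1.05 at L4 (n = 4) and -2.59 ± 0.42 in adults (n = 3). Ordered by level, the 6 larval groups followed one another with gaps smaller than the larger SD of each neighbouring pair. The means of the adult groups stood last, each below its upper neighbour, glp-4 L3 and then glp-4 adults, by more than that SD and with no overlap between the neighbours. Of the larval arrays 1, wild-type L4 replicate 2 at -0.45, lay within the range of the glp-4 adults.

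The 4 glp-4 adult arrays read -0.88, -0.82, -0.31 and -2.03 for bus-5, against 1.40, 0.95, 1.13 and 1.44 on the 4 glp-4 L4 arrays. Every adult value was below every L4 value, a change of -2.24 ± 0.52 (4.73-fold lower, adjusted p = 0.00876). In wild type the adult arrays read -2.18, -2.58 and -3.01, against 0.98, -0.45, 1.39 and 2.02 at L4. Again no adult array reached the lowest L4 array, and the change was -3.57 ± 0.56 (11.9-fold lower, adjusted p = 0.00032), which only 0.1% of all probes tested undercut. The lowest wild-type L4 value, -0.45, came from replicate 2, the array that correlated better with the wild-type adults (r = 0.662) than with the other L4 arrays (r = 0.637), and without it the change was -4.05. Among the mixed control arrays alone the change was -2.21 in glp-4 (adjusted p = 0.150) and -3.37 in wild type (adjusted p = 0.0697). In that small set only 7 probes were called in glp-4 and 22 in wild type.

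In adults the strains differed for bus-5 by 1.58 ± 0.56 (2.99-fold higher in glp-4, adjusted p = 0.0282). The lowest glp-4 array, -2.03, lay just above the highest wild-type array, -2.18. The call did not hold when any 1 of 5 adult arrays was left out, namely glp-4 replicates 1, 2 or 3 and wild-type replicates 3 or 4, with an adjusted p up to 0.109 and a difference of 1.35 to 1.92 over all alternatives. In larvae the difference was -0.82 ± 0.60 at L2 (95% interval -2.06 to 0.42, adjusted p = 0.719), -0.76 ± 0.52 at L3 (-1.84 to 0.32, adjusted p = 0.499) and 0.25 ± 0.52 at L4 (-0.83 to 1.32, adjusted p = 0.817). The difference of the adult-to-L4 change between strains, 1.33 ± 0.77, was not called either (adjusted p = 0.336; within the mixed control arrays 1.17, adjusted p = 0.740).

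**Figure D1:**
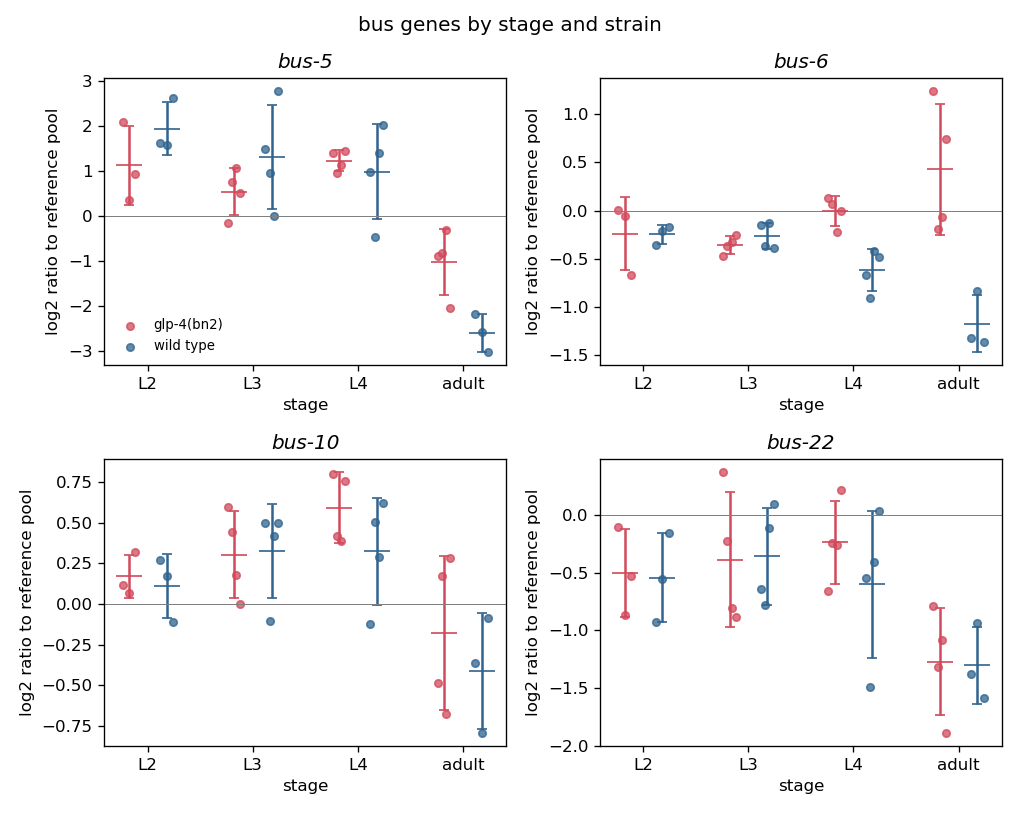
Log2 ratio of worm RNA to the reference pool for bus-5, bus-6, bus-10 and bus-22 at L2, L3, L4 and in adults, with 1 point per array, glp-4(bn2) in red at the left and wild type in blue at the right of each stage, and mean ± SD as a dash with bars. bus-5 stands far lower in adults of both strains, and bus-6 in adults runs from -0.19 to 1.24 in glp-4 and from -1.36 to -0.83 in wild type.

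The strain difference of bus-6 had a different course: it was close to 0 in young larvae and wide in adults. In glp-4 worms bus-6 averaged -0.24 ± 0.37 at L2, -0.35 ± 0.09 at L3, -0.006 ± 0.16 at L4 and 0.43 ± 0.68 in adults. In wild type the means were -0.25 ± 0.10 at L2, -0.26 ± 0.14 at L3, -0.61 ± 0.22 at L4 and -1.17 ± 0.30 in adults. Adults thus marked both ends of the order of levels, the glp-4 adults at the top and the wild-type adults at the bottom. The top step, from glp-4 adults to glp-4 L4, was 0.44, within the larger SD of 0.68 and with overlapping arrays. The 5 groups at L2 and L3 of both strains and L4 of glp-4 followed one another with gaps within the larger SD of each pair. The steps down to wild-type L4 and from there to wild-type adults exceeded it, with overlapping arrays.

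Across adults the glp-4 arrays read 1.24, -0.19, -0.065 and 0.75 for bus-6, against -1.32, -0.83 and -1.36 on the wild-type arrays. The groups did not overlap and differed by 1.60 ± 0.25 (95% interval 1.09 to 2.11, 3.03-fold higher in glp-4, adjusted p = 1.59e-05). This call held under all 14 alternatives tried, with an adjusted p of at most 0.0185. Without glp-4 adult replicate 1, the highest value and the array with the other time code, the difference was 1.33 (adjusted p = 3.56e-05). The glp-4 adults were themselves uneven, with replicates 1 and 4 above the pool and replicates 2 and 3 just below it.

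One stage earlier the difference of bus-6 was smaller. The glp-4 L4 arrays read 0.14, 0.067, -0.22 and -0.003, against -0.66, -0.90, -0.42 and -0.48 in wild type at L4. These groups did not overlap, but the difference, 0.61 ± 0.23, did not pass the threshold (95% interval 0.14 to 1.08, adjusted p = 0.0619). It did when only the L4 arrays entered the fit (adjusted p = 0.0302). Within the mixed control arrays it was 0.72 and within the REF-vjr arrays 0.50, neither called. At L2 the difference was 0.010 ± 0.26 (-0.53 to 0.55) and at L3 it was -0.094 ± 0.23 (-0.56 to 0.38).

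Between L4 and adults, bus-6 changed by 0.44 ± 0.23 in glp-4 (-0.03 to 0.91, adjusted p = 0.266) and by -0.55 ± 0.25 in wild type (-1.06 to -0.05, adjusted p = 0.110). Neither change was called, and the values within the mixed control arrays were 0.40 and -0.48. The test of the difference between these changes gave 0.99 ± 0.33 (0.30 to 1.68) with an adjusted p of 0.0758, and 0.88 within the mixed control arrays (adjusted p = 0.593). It fell below 0.05 when glp-4 adult replicate 2 or 3, wild-type adult replicate 3 or wild-type L4 replicate 2 was left out, with 0.0339 as the lowest value.

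The level of bus-10 was close to that of the pool in larvae and below it in most adults. In glp-4 worms it averaged 0.17 ± 0.13 at L2, 0.30 ± 0.27 at L3, 0.59 ± 0.22 at L4 and -0.18 ± 0.48 in adults. The wild-type means were 0.11 ± 0.20, 0.33 ± 0.29, 0.32 ± 0.33 and -0.41 ± 0.36 at the same stages. No neighbouring pair in the order of the 8 groups differed by more than its larger SD.

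Adult glp-4 arrays read -0.48, 0.17, -0.68 and 0.28 for bus-10, against 0.80, 0.42, 0.39 and 0.76 on the glp-4 L4 arrays. The groups did not overlap, and bus-10 fell by 0.77 ± 0.22 (1.71-fold, adjusted p = 0.0300). The adult wild-type arrays read -0.36, -0.79 and -0.087, against -0.12, 0.51, 0.29 and 0.62 at L4, where the lowest L4 array lay within the adult range. The change was -0.74 ± 0.24 (1.67-fold lower, adjusted p = 0.0284). These calls were not firm: 7 of 16 alternatives in glp-4 and 8 of 15 in wild type ended them. In glp-4 these included the centring of each array on its median (adjusted p = 0.0545). In glp-4 the call was also lost without adult replicates 1 or 3 or L4 replicates 1 or 4, and in wild type without adult replicates 2 or 3 or L4 replicates 2, 3 or 4. Within the mixed control arrays the changes were -0.77 and -0.98. The strains did not differ detectably at any stage, with differences of 0.059 ± 0.25 at L2, -0.023 ± 0.22 at L3, 0.27 ± 0.22 at L4 and 0.24 ± 0.24 in adults (95% interval in adults -0.25 to 0.72).

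A fall towards adulthood was also seen for bus-22 in glp-4. Its means there were -0.50 ± 0.38 at L2, -0.39 ± 0.58 at L3, -0.24 ± 0.36 at L4 and -1.27 ± 0.47 in adults. In wild type they were -0.55 ± 0.38, -0.36 ± 0.42, -0.60 ± 0.64 and -1.30 ± 0.33. The adult groups stood last in the order, and the step from wild-type L4 down to glp-4 adults was the only one above the larger SD of its pair.

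On the glp-4 adult arrays bus-22 read -0.79, -1.32, -1.08 and -1.89, against -0.66, -0.25, -0.26 and 0.22 at L4. No arrays overlapped, and the change was -1.03 ± 0.32 (2.05-fold lower, adjusted p = 0.0493). This lies at the threshold and 11 of 16 alternatives crossed it, among them leaving out adult replicate 2, 3 or 4 or L4 replicate 2, 3 or 4, centring the arrays (adjusted p = 0.110) and the reference wording as a block (adjusted p = 0.0741). In wild type the adults read -1.38, -0.94 and -1.59, against -0.55, -1.49, -0.41 and 0.029 at L4, a change of -0.70 ± 0.35 (95% interval -1.42 to 0.02, adjusted p = 0.159). The L4 array at -1.49 is again replicate 2, and without it the change was -0.996 and was called (adjusted p = 0.0325). Within the mixed control arrays the changes were -1.26 in glp-4 and -0.57 in wild type. The strain differences of bus-22 were 0.043 ± 0.37 at L2, -0.027 ± 0.32 at L3, 0.37 ± 0.32 at L4 and 0.032 ± 0.35 in adults (95% interval in adults -0.69 to 0.75), none of them called.

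Too few arrays held a value for bus-24 and bus-28 to give a course. For bus-24 the adult glp-4 arrays read 0.57, -0.32 and 0.14, against 0.26, 0.52 and -0.68 in wild-type adults, a difference of 0.099 ± 0.65 (95% interval -1.40 to 1.60). At L3 it had 0.39 and -0.23 in glp-4, against -2.49 and 0.25 in wild type. Its single L2 and L4 values were 0.12 and 0.71 in glp-4, against -0.15 and -0.32 in wild type.

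For bus-28 the estimates between strains were large and imprecise. The adult glp-4 arrays read 0.18, -2.02 and 0.71, against -2.16 and -3.25 in wild-type adults, a difference of 2.32 ± 1.12 (-0.20 to 4.85, adjusted p = 0.133). At L3 the arrays read 2.39 and 0.29 in glp-4, against -1.52 and -1.71 in wild type, a difference of 2.95 ± 1.23 (0.18 to 5.72, adjusted p = 0.256). All glp-4 values were above all wild-type values in these comparisons, with 5 arrays in one and 4 in the other. With so few values such a separation carries little weight, and neither difference passed the threshold. At L2 the glp-4 arrays ranged from -1.48 to 2.18, with 1 wild-type array at -0.048 between them. At L4 the only value was -2.43, on a glp-4 array.

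Counted over the members, 2 of the 6 tested in adults were higher in glp-4 than in wild type, bus-5 and bus-6, and none was lower. Among all probes 39.9% were called in that comparison and 19.6% were called higher, so the share of called members is near the background. The median difference was 0.91 over the 6 members and 0.17 over all probes tested. Earlier stages had no called member: 0 of 4 at L2, where 0.419% of probes were called, 0 of 6 at L3 (3.23%) and 0 of 4 at L4 (19.9%). With an unadjusted p under 0.05 in limma's test there were 0 members at L2, 1 at L3 (bus-28) and 1 at L4 (bus-6). Probes with such a p were 1095 of 10272 at L2, 1923 of 11112 at L3 and 3470 of 11220 at L4.

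In the step from L4 to adults, 3 of 4 members tested were lower in glp-4 adults, where 8.04% of all probes were called and 5.55% were called lower. In wild type 2 of 4 were lower, with 22% of probes called and 11.8% called lower. The median change was -0.90 over the members and -0.07 over all probes in glp-4, and -0.72 and -0.12 in wild type. No earlier step had a called member or one with an unadjusted p under 0.05. These counts were 0 of 5 from L2 to L3 in glp-4 (10.3% of probes called), 0 of 4 from L3 to L4 in glp-4 (0.367%), 0 of 4 from L2 to L3 in wild type (0.181%) and 0 of 4 from L3 to L4 in wild type (7.25%). In the same order, the probes with an unadjusted p under 0.05 in limma's test were 2557 of 10512, 755 of 11181, 848 of 10487 and 2149 of 11121. The widest of the members' 95% intervals in these steps, that of bus-28 in glp-4, ran from -1.75 to 3.31.

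Tests of whether a stage step differed between strains called no member: 0 of 4 for L2 to L3 (0% of probes called, 795 of 10181 with an unadjusted p under 0.05), 0 of 4 for L3 to L4 (2.63%) and 0 of 4 for L4 to adult (6.58%). By the unadjusted p, limma's test gave 0, 1 and 1 members in these comparisons, in both cases bus-6. It gave 1077 of 10936 probes for L3 to L4 and 2361 of 11043 for L4 to adult.

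**Figure D2:**
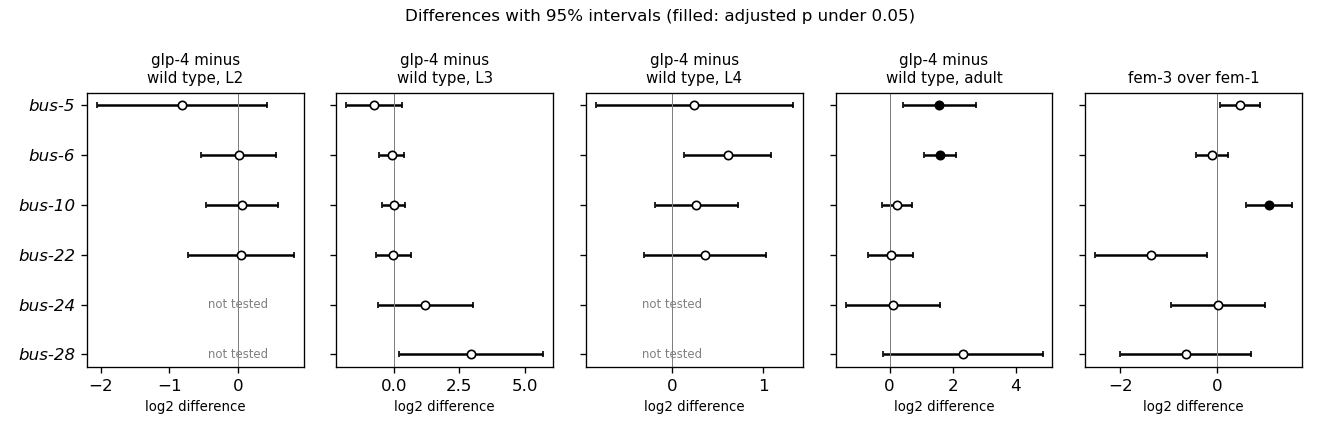
Log2 differences with 95% intervals for the 6 bus genes, glp-4 minus wild type at L2, L3, L4 and in adults, and fem-3 over fem-1 at the right, each panel with its own axis. Filled points have an adjusted p under 0.05, which are bus-5 and bus-6 in adults and bus-10 in fem-3 over fem-1.

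In whole worms a smaller share of a tissue and less RNA per cell cannot be told apart, so marker genes were read beside these results. Named probes covered 5 of 13 listed germ line markers, 7 of 7 for sperm, 2 of 7 for oocytes, 2 of 6 for the intestine and 2 of 4 for neurons. The lists were chosen with earlier results of these data known, so the marker counts are no independent check. Between adults of the strains, 5 of 5 germ line markers tested were lower in glp-4 (-4.23 to -2.68), as were 2 of 2 oocyte markers (-2.89 to -2.59) and 3 of 7 sperm markers (range -2.59 to -0.16). The 2 intestine markers were higher in glp-4 by 1.40 and 1.44 and the 2 neuron markers by 1.09 and 1.14. Beside them stood 1.58 for bus-5 and 1.60 for bus-6, both called. The differences of bus-10 (0.24), bus-22 (0.032), bus-24 (0.099) and bus-28 (2.32) were not called, nor was that of the epidermal gene ptr-25 (0.50). The part of the lost germ line in these differences was not tested.

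From L4 to adults in glp-4, 0 of 5 germ line, 0 of 7 sperm, 0 of 2 oocyte, 0 of 2 intestine and 0 of 2 neuron markers were called, with a range over all of them of -0.41 to 0.47. In wild type 5 of 5 germ line markers (0.84 to 2.02) and 2 of 2 oocyte markers (1.64 to 1.91) were higher in adults, 3 of 7 sperm markers (range -0.95 to 0.34) and 1 of 2 intestine markers (-0.75 and -0.34) were lower, and neither neuron marker was called (-0.62 and -0.49). The fall of bus-5 in glp-4, -2.24, stood beside germ line markers that changed by -0.32 to 0.32. At L4 these markers were already lower in glp-4 than in wild type, 5 of 5 (-3.08 to -1.53). The part of tissue shares in the falls of the members was not tested.

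Between the sperm-making and the oocyte-making worms, bus-10 was the 1 of 6 members called. Among all probes 34.7% were called in that comparison and 19.2% were called higher in fem-3. The fem-3 over fem-1 log2 ratio of bus-10 was 0.62, 0.55, 1.41, 1.66 and 1.15 on replicates 1 to 5. All 5 arrays were above 0, with a mean of 1.08 ± 0.20 (SE, 2.11-fold higher in fem-3, adjusted p = 0.00687). In fem-3 over fem-1, the 7 sperm markers were all called higher (0.69 to 5.37), while 5 of 5 germ line markers (-1.54 to -0.87) and 2 of 2 oocyte markers (-1.57 and -1.07) were lower. Of the intestine markers 0 of 2 were called (-0.24 and 0.29), and of the neuron markers 1 of 2 was higher (0.33 and 0.53).

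The largest change in size between the fem strains, although not called, was that of bus-22. Its ratios were -0.17, -0.036, -3.42, -2.04 and -1.14, all below 0 but far apart, with a mean of -1.36 ± 0.49 (95% interval -2.52 to -0.20, adjusted p = 0.0711). Without replicate 3 the mean of bus-22 was -0.85 (adjusted p = 0.138). It was called without replicate 1 (-1.66, adjusted p = 0.0498), without replicate 2 (-1.69, adjusted p = 0.0486) and with replicates 2 and 3 averaged (-1.27, adjusted p = 0.0268). For bus-5 the 4 arrays with a value read 0.59, 0.78, 0.25 and 0.29, all above 0, with a mean of 0.48 ± 0.17 (0.07 to 0.89, adjusted p = 0.0746). The other members showed no common sign: bus-6 averaged -0.11 ± 0.14, bus-24 0.023 ± 0.41 and bus-28 -0.64 ± 0.55. The arrays of bus-28 read -2.63, -0.96, 0.71 and 0.32, and without the first, replicate 1, the mean was 0.021. Those of bus-24 read 1.82, -0.54, 0.51, -1.05 and -0.62, and without replicate 1 the mean was -0.43 (adjusted p = 0.240). With an unadjusted p under 0.05 in limma's test there were 3 of 6 members, bus-5, bus-10 and bus-22, and 6206 of 13284 probes.

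Replicates 1 and 2 stood apart from the other fem arrays for bus-10 and bus-22, and the labels give them array lot numbers from a separate range. For bus-10 the mean was 1.41 over replicates 3, 4 and 5 (adjusted p = 0.00338) and 0.58 over replicates 1 and 2 (adjusted p = 0.174). For bus-22 it was -2.20 over replicates 3, 4 and 5 (adjusted p = 0.0125) and -0.10 over replicates 1 and 2 (adjusted p = 0.785). bus-5 went the other way, with 0.27 on the later lots and 0.68 on the earlier ones. Over all probes the median size of the log2 ratio was 0.74, 0.51 and 0.52 on replicates 3, 4 and 5, and 0.47 and 0.42 on replicates 1 and 2. The part of the lot in these values was not tested. Replicate 1 is a reconstructed data set, per the labels, and replicate 3 is titled as a repeat of replicate 2, with which it correlated at r = 0.647. fem-3 was red and fem-1 green on all 5 arrays, so dye and strain cannot be told apart.

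**Figure D3:**
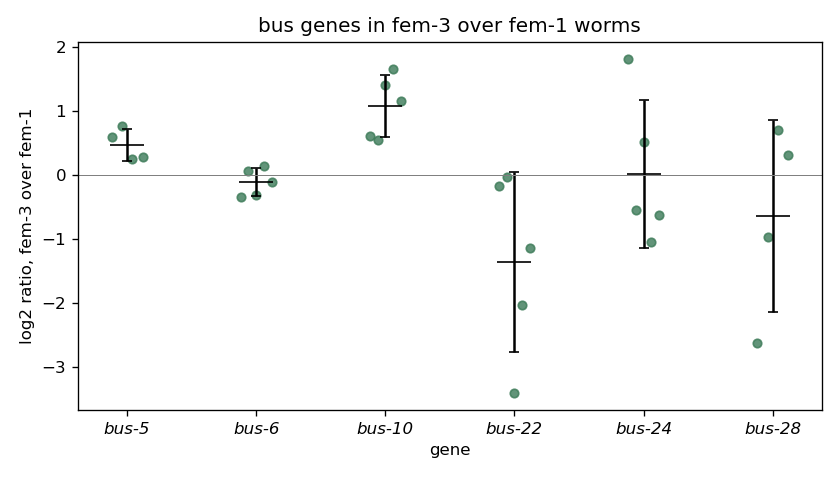
Log2 ratio of fem-3 over fem-1 for the 6 bus genes, with 1 point per array in the order of the replicate numbers and mean ± SD as a dash with bars. All 5 points of bus-10 lie above 0 (0.55 to 1.66) and all 5 of bus-22 below it (-3.42 to -0.036).

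A list of 70 other genes of surface glycan synthesis, among them the rhamnose pathway, nucleotide sugar transporters and glycosyltransferases, had only 3 named probes: rml-3 (C14F11.6, chromosome X), rml-4 (C01F1.3, chromosome II) and srf-5 (F54B11.10, chromosome X), a gene of the surface antigenicity class. From L4 to adults 2 of these 3 were called lower in each strain, rml-3 and srf-5. Among all probes 5.55% were called lower in glp-4 and 11.8% in wild type. On the adult arrays rml-3 read -0.87, -1.41, -1.67 and -2.87 in glp-4, against 1.16, 1.12, 1.86 and 2.07 at L4. The change of rml-3 was -3.26 ± 0.60 in glp-4 (adjusted p = 0.00288). In wild-type adults it read -3.38, -2.15 and -3.08, against -0.19, -1.58, 0.022 and 1.38 at L4, a change of -2.78 ± 0.64 (adjusted p = 0.00592). The direction was that of bus-5, which acts in the same pathway. srf-5 fell by 0.64 ± 0.18 in glp-4 (adjusted p = 0.0276) and by 0.95 ± 0.19 in wild type (adjusted p = 0.00168). The third gene, rml-4, changed by -1.44 ± 0.67 in glp-4 and by -1.02 ± 0.67 in wild type, not called (adjusted p = 0.210 and 0.299).

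Between strains srf-5 was the only gene of this list called, higher by 0.57 ± 0.19 in glp-4 adults (adjusted p = 0.0223), while rml-3 differed by 1.17 ± 0.64 (adjusted p = 0.162) and rml-4 by 0.95 ± 0.71 (adjusted p = 0.309). Among all probes 19.6% were called higher in glp-4 adults. In fem-3 over fem-1, srf-5 was higher by 0.93 ± 0.25 (adjusted p = 0.0345), rml-3 averaged 0.56 ± 0.23 (adjusted p = 0.100) and rml-4 0.093 ± 0.16 (adjusted p = 0.670). On these fem arrays 19.2% of all probes were called higher. Here, too, rml-3 was further from 0 on replicates 3, 4 and 5 (0.63 to 1.13) than on replicates 1 and 2 (-0.13 and 0.062). A wider list of cuticle and epidermis genes, beyond the 6 markers, had 1 named probe, ptr-25, a patched-related gene, which in wild type was lower at L4 than at L3 (-1.35 ± 0.37, adjusted p = 0.0234) and in adults than at L4 (-1.12 ± 0.40, adjusted p = 0.0455). In glp-4 the same steps of ptr-25 were 0.12 ± 0.37 (adjusted p = 0.996) and -0.88 ± 0.37 (adjusted p = 0.148), neither called.

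Array by array, bus-22 followed rml-3 closely, with Pearson r = 0.911 and Spearman rho = 0.913 over the 22 reference-pool arrays where both had a value. Within groups, after each group's mean was taken off, r was 0.863, and it was 0.880 over the 15 larval arrays. On the fem arrays, in contrast, the ratios of both genes had opposite signs on replicates 3, 4 and 5, where bus-22 read -3.42, -2.04 and -1.14 and rml-3 read 1.13, 1.09 and 0.63. bus-5 followed rml-3 on the reference-pool arrays with r = 0.857, of which 0.516 was left within groups and 0.466 over the larval arrays. These arrays share probes and worm batch numbers, and the adult arrays lie at one end. Whether the wordings of the reference mean the same preparation is not said. The values therefore describe likeness only. Among the members themselves the closest pair was bus-5 and bus-22, with r = 0.701 over 29 arrays, 0.495 within groups and 0.354 over the 22 larval arrays. Over all 29 arrays bus-6 was nearly unrelated to bus-10 (r = 0.077) and bus-22 (r = 0.116), with 0.12 and 0.289 over the larval arrays. With rml-3, bus-6 had r = 0.272 over 22 arrays, 0.655 over the 15 larval arrays and 0.22 within groups.

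**Figure D4:**
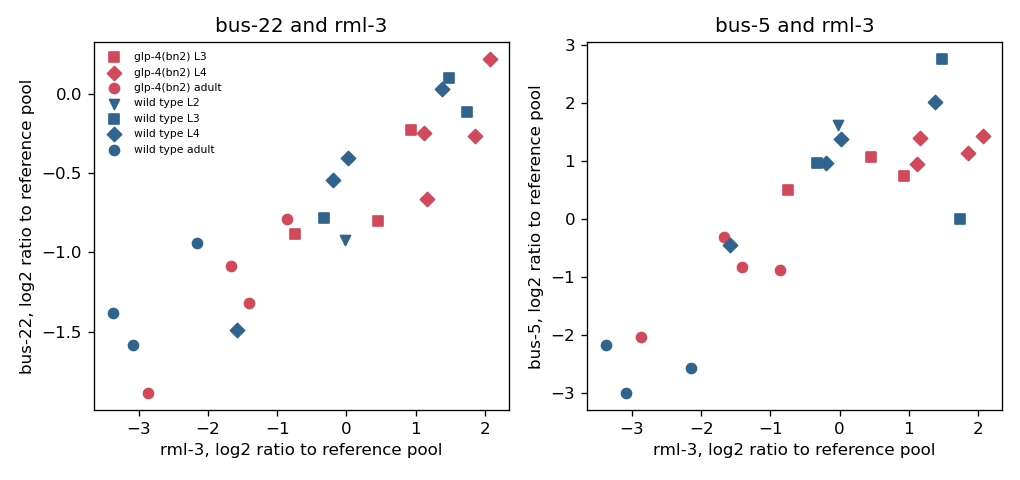
Log2 ratio to the reference pool of bus-22 (left) and bus-5 (right) against that of rml-3, with 1 point per array over the 22 arrays with a value for rml-3, glp-4(bn2) in red and wild type in blue, and a symbol for each stage. Adult arrays lie at the low end of both plots, and wild-type L4 replicate 2, at -1.58 for rml-3, lies among them.

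By a fixed rule the 3 genes of most similar course were named for each member with at least 20 values, out of 759 candidate probes with a gene-class symbol and a value on at least 24 of the 29 arrays. For bus-5 these were cpg-19 (r = 0.903), dbd-19 (r = 0.896) and sups-1 (r = 0.875), all on chromosome X like bus-5 itself. Of the 760 probes that meet the rule, bus-5 included, 111 lie on X. Within groups the values were 0.874, 0.821 and 0.699. For bus-22 they were gtnt-16 (r = 0.869), spia-1 (r = 0.778) and sups-1 (r = 0.774), with 0.814, 0.593 and 0.573 within groups. Of these genes spia-1 and sups-1 also lie on X and gtnt-16 on V, while bus-22 itself is on III.

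The likeness was weaker for the other members. bus-6 was nearest to nssp-77 (r = 0.762), hzl-1 (r = 0.717) and pals-6 (r = 0.71), with 0.605, 0.329 and 0.502 within groups. bus-10 was nearest to gtnt-32 (r = 0.737), gphr-2 (r = 0.735) and srlf-6 (r = 0.728), with 0.687, 0.452 and 0.303 within groups. Here nssp-77 and gphr-2 lie on X, hzl-1 and gtnt-32 on V, pals-6 on I and srlf-6 on IV. The number of arrays was 28 for pals-6 and gtnt-32 and 29 for the others.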

How the data were processed

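Per the labels, messenger RNA of synchronized worms was hybridised to arrays of 2 colours, scanned with GenePix (1 fem array: ScanAlyze). The authors deposited 1 log ratio of red over green per probe and array, read here as log2; how it was normalized and filtered, and its base, is unknown here, and no signal filter was applied. On the 29 reference arrays red was the pool, and signs were turned to worm RNA over pool. Values were otherwise used as deposited. Each probe was fitted with limma's linear model and empirical Bayes steps (limma 3.58.1, R 4.3.3), checked on simulated data: the 29 reference arrays in 1 fit with 8 groups that shared each probe's spread, the 5 fem arrays in a fit of their mean. Tests needed at least 2 values in every group compared (fem: 3). Every member is named, and the 3 most similar genes by Pearson r. Intervals are 95%. The number of arrays limits the precision. Replicates are worm batches per the labels (for L2 of glp-4, replicate 2 joins batches 2 and 4), while nothing says so for the fem arrays, where p-values measure only the spread between arrays. Gene names came from the platform annotation: of 5582 named probes, 5559 matched the gene table by ID. Members and lists were chosen with earlier results of these data known. Alternatives were centring, filter, variance prior, fitted samples, batch number, reference wording, label conflicts, lots and leaving out each array. No sequence is shown.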

Additional observations from a re-analysis of the deposited data

Results flagged for a closer look

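For bus-10, wild-type L3 replicate 2 read -0.10, far from the other 3 arrays of its group (0.42, 0.50 and 0.50) for the width of that group. It was the only one set apart by Dixon's test among 26 sets of a gene and a group with at least 4 values, and chance sets apart about 1 set in 20.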

How the results depend on the processing

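Over 1023 recalculations of the 63 tested differences of single members, no called difference changed direction. Of the 63, 52 stayed on the same side of the threshold throughout. Among these only the difference of bus-6 between adults of the strains was a called one. Every other called difference lost its call under some alternative. The 2 members called between adults of the strains became 1 or 2 when an array was left out; bus-6 was called each time. The 0 called at L4 became 1 when only the arrays compared were fitted. From L4 to adult in glp-4, the 3 called became 1 with centred arrays, 1 with only the arrays compared, 0 with only the mixed control arrays and 1 to 2 when an array was left out. In wild type the 2 called became 1 with only the arrays compared, 0 with only the mixed control arrays, 1 without the arrays whose labels disagree on stage and 1 to 2 when an array was left out. The 0 called for the change of strain difference from L4 to adult became 0 to 1 when an array was left out. For fem-3 over fem-1 the 1 called became 2 with replicates 2 and 3 averaged, 1 to 2 when an array was left out, 2 on the later lots alone and 0 on the earlier lots alone. Counts of called probes moved too: from L4 to adult, 911 became 7 in glp-4 and 2472 became 22 in wild type within the mixed control arrays. The part of the smaller number of arrays in this was not tested. Other counts of probes that moved most were, for the strain difference, 43 against 299 at L2 without glp-4 L2 replicate 1, 359 against 4 at L3 and 2235 against 468 at L4 within the mixed control arrays. For L2 to L3 they were 1080 against 240 in glp-4 and 19 against 0 in wild type with only the arrays compared. For L3 to L4 they were 41 against 3 in glp-4 within REF-vjr and 806 against 159 in wild type within the mixed control. The change of strain difference gave 0 against 33 for L2 to L3 without glp-4 L2 replicate 1, and within the mixed control 288 against 0 for L3 to L4 and 727 against 0 for L4 to adult. fem-3 over fem-1 gave 4613 against 1025 on the earlier lots. The same-numbered arrays of the strains were not taken as pairs, since their deviations from the group means correlated at only -0.047 to 0.217. At L4, however, they correlated at 0.06 to 0.217, against -0.195 to 0.136 for arrays of different numbers. The wild-type array of the same number was the nearest for 3 of 4 glp-4 arrays at L4, 1 of 4 at L3 and 1 of 3 in adults. With the batch number as a replicate block, 2 members in place of 3 were called from L4 to adult in glp-4, bus-22 being lost (adjusted p = 0.0580), and every other comparison of the reference arrays kept its count of members. The sparse values of bus-24 and bus-28 limit what can be seen of them. The fits by lot, those within the mixed control for L4 to adult and those within REF-vjr for L2 to L3 were chosen after the data were seen.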
